A study of Mus musculus with 13 samples.

Results

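A set of 9 genes of the interferon response was followed in B16F10 melanoma cells sorted from lung metastases of APOE2 and APOE3 knock-in mice. The genes were chosen by symbol from the 22656 genes of the deposited table. The set holds the regulators Stat2, Irf1, Irf7 and Irf9 and the effectors Isg15, Ifit1, Ifit3, Bst2 and Gbp2. The cells were B16F10-TR-shApoe, a derivative of the mouse melanoma line B16F10 whose name gives a short hairpin against Apoe, and this line was used in both groups. The mice received 100000 of these cells through the tail vein. On day 15 the lungs were digested, and cells that were GFP-positive, negative for the leukocyte antigen CD45 and low for the dead-cell dye TO-PRO-3 were sorted for RNA. The design text counts 8 APOE2 and 5 APOE3 mice, and there are as many libraries in each group, but the labels do not tie a library to a mouse. Cells grown in culture or given interferon were not analysed here, so the levels below have no uninduced or induced reference. Host age and sex are not given in the sources used here.

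Interferons are secreted proteins that cells release when they sense foreign or misplaced nucleic acid, or, for interferon gamma, that activated lymphocytes release. Type I interferons act through the kinases JAK1 and TYK2 and assemble a complex that holds STAT2 and IRF9 and binds a DNA element called ISRE. Interferon gamma acts through JAK1 and JAK2, and many genes of this arm carry an element called GAS. IRF1 is a target of that arm, and IRF7 is the induced factor that amplifies type I interferon genes. Tumour cells in tissue often carry some level of this programme, since they receive interferon from their surroundings and can also produce it.

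The promoter stretches that hold an ISRE or GAS element are printed first, because the arms of the pathway act through these elements. RefSeq windows (GRCm38.p6) from 250 bases before to 50 bases after each start were found for 9 of 9 genes, as 11 windows, since Irf1 and Irf9 have more than 1 start. The ISRE core was searched as GAAA, any 2 bases and GAAA, on both strands, so that a match on the other strand reads TTTC, 2 bases, TTTC. The GAS element was searched as TTCNNNGAA, which reads alike on both strands. Capitals mark the ISRE core matches, or in Irf1 the GAS match. Each stretch reads in the direction of its gene, with 15 bases on either side.
Isg15 (chr4:156200860-156200911, minus strand): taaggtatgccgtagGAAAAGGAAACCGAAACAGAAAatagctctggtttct
Ifit1 (chr19:34640770-34640828, plus strand): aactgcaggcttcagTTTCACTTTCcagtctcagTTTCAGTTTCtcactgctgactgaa
Ifit3 (chr19:34583358-34583431, plus strand): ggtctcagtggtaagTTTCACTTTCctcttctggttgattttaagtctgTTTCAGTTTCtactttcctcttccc
Bst2 (chr8:71537572-71537617, minus strand): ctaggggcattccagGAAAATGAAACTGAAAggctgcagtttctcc
Gbp2 (chr3:142620589-142620628, plus strand): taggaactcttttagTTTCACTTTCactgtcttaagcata
Stat2 (chr10:128270261-128270300, plus strand): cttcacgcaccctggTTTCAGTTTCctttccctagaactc
Irf1 (chr11:53769909-53769947, plus strand): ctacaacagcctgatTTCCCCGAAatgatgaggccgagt
The ISRE core was present in 5 of 5 effectors and in 1 of 4 regulators, Stat2, against 3.99% of the 27025 genes with a window. Isg15 held 3 overlapping matches, and Ifit1, Ifit3 and Bst2 held 2 each. The longer form, the core followed by CT, was present in Ifit1, Ifit3, Bst2 and Gbp2, against 0.303% of all genes with a window. The GAS letters were found in Irf1 and in Bst2, where they begin in the small letters and overlap the first ISRE match, against 9.55% of all genes with a window. In the windows of Irf7 and Irf9 these letters were not found. Of 10 other GTPase and interferon gamma target genes with a window, 9 held the ISRE core and 6 the GAS letters. That list thus held both kinds of letters, and it was not divided by arm. Whether the letters sort genes by arm was not tested. These matches are letters in a window, and binding was not measured.

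The libraries held between 7080308 and 13039989 reads. Apoe, the gene the hairpin targets, averaged 1730 normalised counts in the 8 APOE2 libraries (SD 375) and 1845 in the 5 APOE3 libraries (SD 441), with a log2 difference of -0.088 ± 0.16 (SE) and a limma adjusted p of 0.852. The lineage label was checked with 7 melanocyte genes. They summed to between 295578 and 454459 normalised counts per library in APOE2 and between 213130 and 327639 in APOE3. The largest part of that sum in each library was Dct, with 176606 to 323071 in APOE2 and 101484 to 208301 in APOE3. Of the 7, 3 had a log2 difference below 0 and 0 had a limma adjusted p under 0.05. A list of 16 leukocyte markers summed to between 454 and 2471 in APOE2 and between 2021 and 12186 in APOE3. Most of that sum, except in APOE2 replicate 3, was Lyz2, a lysozyme gene of macrophages and also of alveolar type 2 cells, with 186 to 11891 normalised counts. Ptprc, which encodes CD45, reached at most 38.5. S100a8 (36.96 to 233.07), S100a9 (18.51 to 194.22), Fcer1g (25.63 to 71.18) and Cd68 (10.36 to 84.3) had reads in all 13 libraries. Of the 16 leukocyte markers, 5 were at 0 in 7 or more libraries. Siglech and Ccr9, markers of plasmacytoid dendritic cells, which are known for high Irf7 and Bst2, had reads in 2 and 1 of the 13 libraries. The 10 endothelial markers summed to between 587 and 852 in APOE2 and between 830.1 and 1672 in APOE3, and 10 of 10 had a log2 difference below 0, 1 of them past the threshold. The 10 lung epithelium markers summed to between 641 and 4051 in APOE2 and between 3389.8 and 21134 in APOE3. Of these, 9 were tested, 9 had a log2 difference below 0 and 6 passed. The 9 fibroblast and smooth muscle markers summed to between 119.5 and 442 in APOE2 and between 238 and 1849.8 in APOE3, with 6 of 6 tested below 0 and 1 past the threshold.

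**Figure D1:**
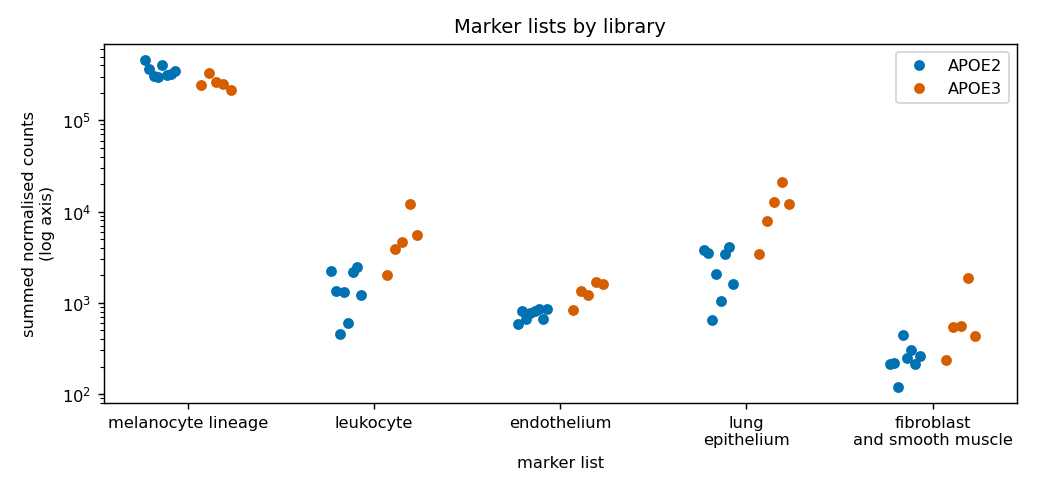
Summed normalised counts of 5 marker lists (y axis, log scale) in the 8 APOE2 and 5 APOE3 libraries, 1 point per library. The endothelial sums run from 587 to 852 in APOE2 and from 830.1 to 1672 in APOE3, while the lowest melanocyte sum is 213130.

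The effector genes were compared between hosts to ask whether the tumour cells of APOE2 and APOE3 mice carried a different interferon programme. Of the 5 effectors, 0 differed by limma after adjustment over the 12403 genes tested. Isg15 (ENSMUSG00000035692, chr4:156199424-156200818, minus strand) encodes a ubiquitin-like protein that is attached to other proteins during the interferon response. Positions are those of GENCODE M21 on GRCm38. Isg15 had a lowest, median and highest value of 81.8, 215 and 280.1 normalised counts in the 8 APOE2 libraries. In APOE3 replicates 1 to 5 it had 188, 280.2, 119, 228 and 146. The groups covered nearly the same range, and the log2 difference, APOE2 minus APOE3 on the log2(normalised count + 1) scale, was -0.038 ± 0.28 (SE; limma adjusted p = 0.970). The 95% interval of that difference, from -0.62 to 0.54, allows ratios from 0.652 to 1.45.

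Bst2 (ENSMUSG00000046718, chr8:71534255-71537456, minus strand) encodes tetherin, a membrane protein that holds budding virus at the cell surface. It had 577, 861 and 988 normalised counts (lowest, median and highest) in APOE2 libraries and 775, 839.5, 549, 763 and 805 in APOE3 replicates 1 to 5. APOE3 replicate 3 was the lowest of the 13 libraries, and 4 of the 5 APOE3 values lay inside the APOE2 range. Its log2 difference was 0.091 ± 0.15 (SE), and its 95% interval, from -0.22 to 0.40, was the narrowest of the 9 genes (limma adjusted p = 0.833). For this gene a ratio above 1.32 or below 0.857 lay outside the interval.

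Ifit1 (ENSMUSG00000034459, chr19:34640871-34650009, plus strand) and Ifit3 (ENSMUSG00000074896, chr19:34583531-34588731, plus strand) encode members of a family of proteins with tetratricopeptide repeats that bind viral RNA or the complexes formed on it. Ifit1 had 57.6, 109 and 158 normalised counts (lowest, median and highest) in APOE2, and 45.3, 168, 84.3, 81.9 and 71.7 in APOE3 replicates 1 to 5. APOE3 held both the lowest and the highest library, and the log2 difference was 0.32 ± 0.30 (SE; limma adjusted p = 0.674). Without APOE3 replicate 1 it was 0.11, and without APOE3 replicate 2 it was 0.58. Ifit3 had 178, 258 and 365 in APOE2, and 202, 314, 127, 217 and 91.4 in APOE3 replicates 1 to 5. Of the 8 APOE2 libraries, 8 lay above the APOE3 mean of log2 values, but 1 lay above the highest APOE3 library. The log2 difference of Ifit3, 0.52 ± 0.25 (SE), had an unadjusted p of 0.0462 and a limma adjusted p of 0.344. Its 95% interval ran from 0.0094 to 1.04. Without APOE3 replicate 5 the difference was 0.29, and without APOE3 replicate 2 it was 0.74. Of the 50-base words in the last 400 bases of the Ifit3 transcript, 19.1% also occur in Ifit3b, so reads of these neighbours can be split between them. Ifit3b itself had a log2 difference of 0.48 (limma adjusted p = 0.546).

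Gbp2 (ENSMUSG00000028270, chr3:142620602-142638008, plus strand) encodes a guanylate-binding GTPase of the interferon gamma response that acts on membranes around pathogens. It had 30.3, 50.1 and 126 normalised counts (lowest, median and highest) in APOE2, and 69.5, 13.6, 38.5, 47.1 and 53.2 in APOE3 replicates 1 to 5. APOE2 replicates 2, 4 and 5 stood above every APOE3 library, and APOE3 replicate 2 stood below every other library. The log2 difference was 0.54 ± 0.43 (SE; limma adjusted p = 0.605), and without APOE3 replicate 2 it fell to 0.18.

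**Figure D2:**
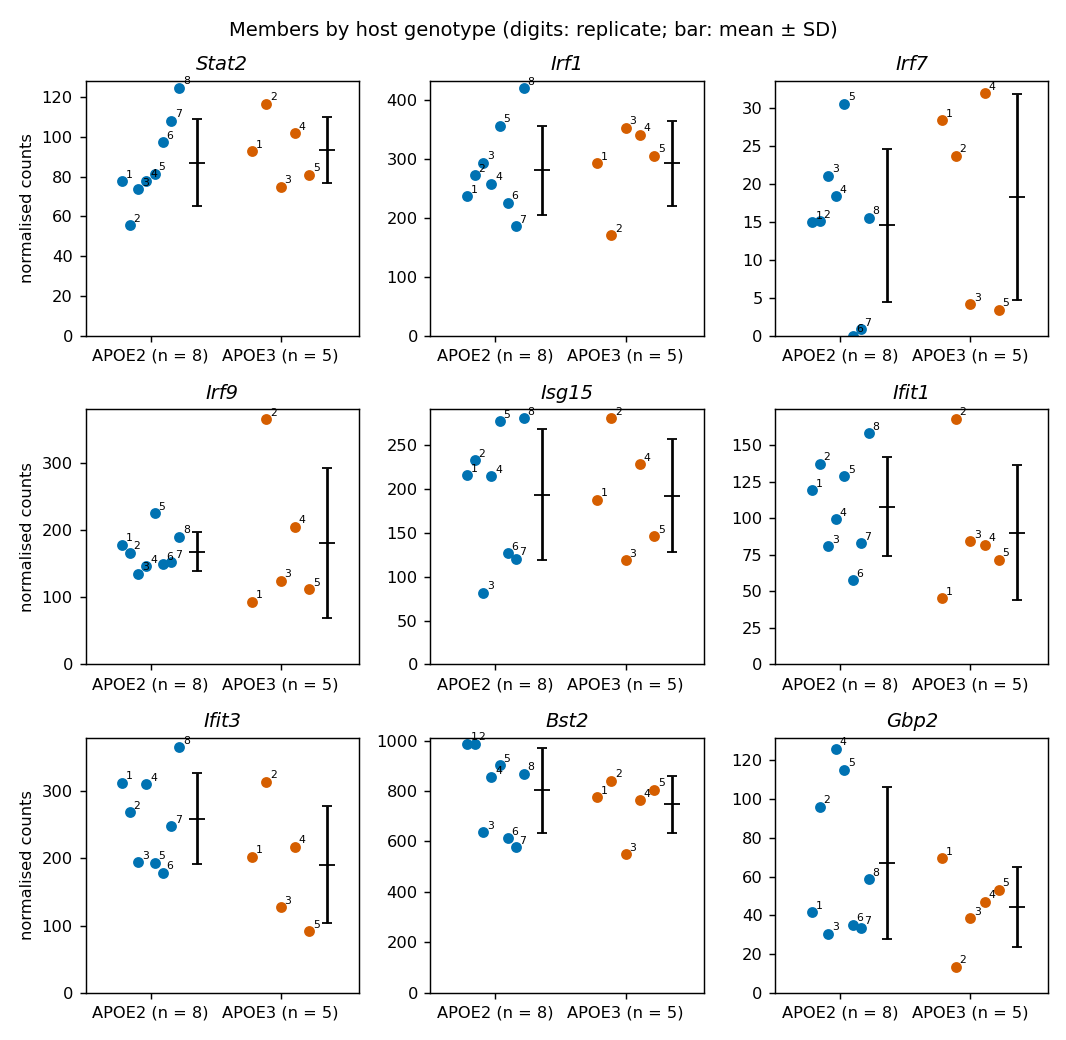
Normalised counts (y axis) of the 9 genes in each library, with APOE2 in blue and APOE3 in orange. Digits give the replicate and bars give the mean and SD. The 2 groups overlap in each panel. APOE3 replicate 2 is the highest library for Irf9 at 365 and for Ifit1 at 168, and the lowest for Gbp2 at 13.6.

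Among the regulators, Stat2 (ENSMUSG00000040033, chr10:128270559-128292849, plus strand) is the subunit that gives the type I complex its activating domain. It had 55.5, 79.5 and 124 normalised counts (lowest, median and highest) in APOE2, and 92.7, 116, 74.9, 102 and 81.0 in APOE3 replicates 1 to 5. The 5 APOE3 values lay inside the APOE2 range, and the log2 difference was -0.12 ± 0.25 (SE; limma adjusted p = 0.871). With 1 library left out it ran from -0.20 (APOE2 replicate 8) to -0.037 (APOE2 replicate 2). Irf9 (ENSMUSG00000002325, chr14:55603571-55610030, plus strand) is the DNA-binding subunit of the same complex. It had 135, 159.6 and 225 in APOE2, and 93.8, 365, 125, 205 and 112 in APOE3 replicates 1 to 5. The APOE3 libraries spread further than the APOE2 libraries, with an SD of 112 against 29.2, and the log2 difference was 0.070 ± 0.26 (SE; limma adjusted p = 0.934). Irf9 shares exon bases with Rnf31 on the same strand, so its reads are uncertain to that extent.

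Irf1 (ENSMUSG00000018899, chr11:53770014-53778374, plus strand) switches on much of the interferon gamma programme. It had 186, 265 and 420.1 normalised counts (lowest, median and highest) in APOE2, and 293, 171, 353, 342 and 305 in APOE3 replicates 1 to 5. APOE3 replicate 2, the highest library for Irf9, was the lowest for Irf1. The log2 difference was -0.055 ± 0.20 (SE; limma adjusted p = 0.934). Irf7 (ENSMUSG00000025498, chr7:141262706-141266481, minus strand) had 0, 15.35 and 30.6 normalised counts (lowest, median and highest) in APOE2, and 28.4, 23.7, 4.16, 32.0 and 3.47 in APOE3 replicates 1 to 5. APOE2 replicates 6 and 7 and APOE3 replicates 3 and 5 were below 5, the other libraries were above 14, and that split cut across the genotypes. The log2 difference of -0.48 ± 0.88 (SE; limma adjusted p = 0.852) had a 95% interval from -2.29 to 1.33, so a change of more than 2-fold in either direction was within it. Without APOE2 replicate 6 the difference was -0.0033, and without APOE3 replicate 5 it was -0.89. Irf1 and Irf7 share exon bases with genes on the opposite strand, Gm17334 and Phrf1, and the strand setting of the counting is not given in the sources used here.

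**Figure D3:**
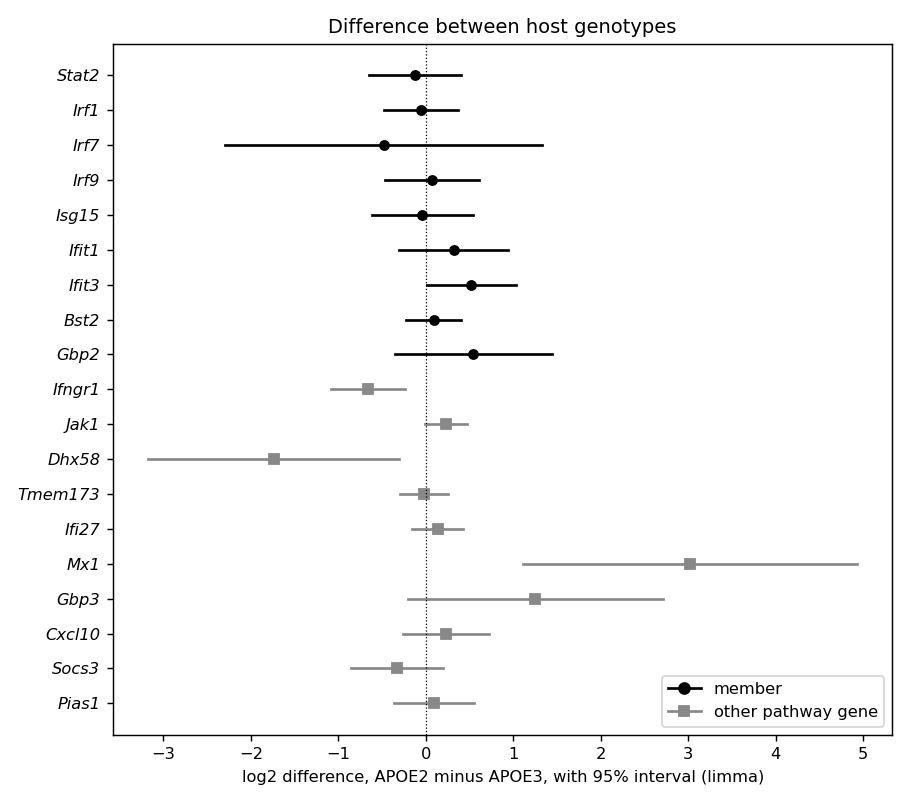
Log2 difference between hosts, APOE2 minus APOE3 (x axis), with its 95% interval from limma, for the 9 genes (black circles) and 10 other pathway genes named by rule (grey squares). Of the 9 intervals 8 include 0, and that of Ifit3 begins at 0.0094. Adjusted p-values of the 19 genes were above 0.05.

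Of the 9 genes, 0 had a limma adjusted p under 0.05, against 0.79% of the 12403 genes tested (0.411% higher and 0.379% lower in APOE2). The count was also 0 with edgeR (1.11% of genes called) and with DESeq2 (2.51% called), and in each fit that left out 1 library. At an unadjusted limma p under 0.05 there was 1, Ifit3, which was higher in APOE2, against 14.2% of genes tested (7.51% higher and 6.71% lower). With edgeR and with DESeq2 there were 0. The median log2 difference was 0.070, beside 0.00037 over the genes tested, and 5 of the 9 differences were above 0, against 50.1% of genes tested. By role, the median was 0.32 for the 5 effectors and -0.089 for the 4 regulators.

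In APOE2 hosts the coefficient of variation ran from 17.3% for Irf9 to 69.4% for Irf7, beside a median of 22.4% over the genes tested. In APOE3 hosts it ran from 15.3% for Bst2 to 74.1% for Irf7, with 62.0% for Irf9. The libraries that stood high or low were partly the same from gene to gene. APOE2 replicate 8 was among the 3 highest libraries for 5 of the 9 genes, APOE3 replicate 2 for 5 and APOE2 replicate 5 for 6. APOE2 replicates 6 and 7 and APOE3 replicate 3 were each among the 3 lowest for 5 of the 9, APOE3 replicate 5 for 4 and APOE2 replicate 3 for 3. Both genotypes thus had libraries at the high and at the low end.

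Marker levels of these libraries are set beside that order. Among the APOE2 libraries at the low end, the lung epithelium sums were 3444 in replicate 6, 4051 in replicate 7 and 641 in replicate 3. At the high end they were 1056 in replicate 5 and 1614 in replicate 8, so the low libraries lay on both sides of the high ones. Without Lyz2, the leukocyte sums were 194, 352 and 268 in APOE2 replicates 6, 7 and 3, and 189 and 280.1 in replicates 5 and 8. In APOE3 the lung epithelium sum was 7909 in replicate 2, at the high end, and 12815 and 12001 in replicates 3 and 5, at the low end. APOE3 replicate 4 had the highest sum, 21134, with 2 genes among the 3 highest and 0 among the 3 lowest. APOE3 replicate 1 had the lowest APOE3 sum, 3390, with 1 gene among the 3 highest and 2 among the 3 lowest. The 5 APOE3 libraries thus held no steady order by the lung epithelium sum. The melanocyte sums were 405519 and 350303 in APOE2 replicates 5 and 8, and 313615, 323986 and 307194 in replicates 6, 7 and 3. In APOE3 they were 327639 in replicate 2, and 264248 and 213130 in replicates 3 and 5. APOE2 replicate 4 had the lowest APOE2 melanocyte sum, 295578, with 1 gene among the 3 highest and 0 among the 3 lowest. The part of these marker levels in the variation was not tested.

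**Figure D4:**
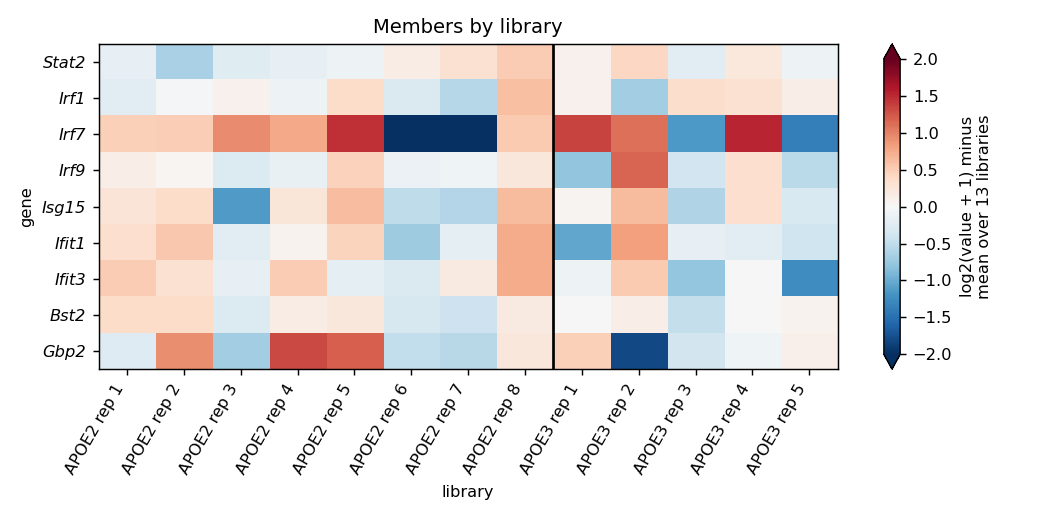
The 9 genes (rows) in the 13 libraries (columns), as log2(normalised count + 1) minus the gene's mean over the libraries. Red is above and blue below that mean, colours end at 2 in either direction, and the line separates APOE2 from APOE3. APOE2 replicate 8 is red in all 9 rows, whereas APOE3 replicate 2 is red in 7 and blue for Irf1 and Gbp2.

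To describe the shared part, each genotype's mean was subtracted and the 36 pairs of genes were compared over the 13 libraries. Pearson's r was above 0 in 27 pairs, with a median of 0.36, beside a median of 0.0014 between these genes and the other 12394 tested. With Benjamini-Hochberg adjustment over 36 pairs, permutation p-values were under 0.05 for 1 pair by r and for 4 pairs by Spearman's rho. Isg15 and Bst2 had the highest correlation (r = 0.83, permutation p = 0.00282, adjusted 0.0508; rho = 0.76, permutation p = 0.00554, adjusted 0.0499). It stayed at r = 0.78 without the 2 libraries farthest from the Isg15 median. Of the 12394 other genes, 0.113% had an r with Isg15 at least as high.

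Isg15 and Ifit1 had r = 0.66 (permutation p = 0.0137, adjusted 0.0984) and rho = 0.76 (permutation p = 0.00538, adjusted 0.0499), and r = 0.78 without the 2 farthest libraries, with 1.45% of other genes at least as high with Isg15. Irf9 and Isg15 had r = 0.61 (permutation p = 0.00529, adjusted 0.0635) and rho = 0.75 (permutation p = 0.00118, adjusted 0.0425), and r = 0.76 without 2 libraries. Of the other genes, 5.49% had an r with Irf9 at least as high. The pair past the adjusted threshold by r was Irf9 and Ifit1 (r = 0.80, permutation p = 0.00091, adjusted 0.0328; rho = 0.74, permutation p = 0.00256, adjusted 0.0461). Without the 2 libraries farthest from the Irf9 median its r was 0.53, so its size rests in part on those libraries. Of the other genes, 0.726% had an r with Irf9 at least as high. Irf9 did not pass the adjusted threshold with the other genes that hold the ISRE core: r was 0.58 with Ifit3 (permutation p = 0.139, adjusted 0.313; rho = 0.58, permutation p = 0.0949, adjusted 0.381), 0.39 with Stat2, 0.36 with Bst2 and -0.38 with Gbp2.

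Stat2, Irf1 and Gbp2 followed the others less closely. Their Pearson correlations with the mean of the 9 scaled genes, a mean that contains them, were 0.23, 0.27 and 0.30, while Isg15 had 0.93, Bst2 0.78 and Irf7 0.76. Irf1 and Irf9 had r = -0.28 (permutation p = 0.445, adjusted 0.641; rho = -0.038, permutation p = 0.913, adjusted 0.950), and r = 0.34 without the 2 libraries farthest from the Irf1 median. Irf1 and Gbp2, both targets of interferon gamma, had r = 0.58 (permutation p = 0.0503, adjusted 0.208; rho = 0.41, permutation p = 0.183, adjusted 0.446). That r was 0.20 without the 2 libraries farthest from the Irf1 median, so the relation rests on those libraries.

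**Figure D5:**
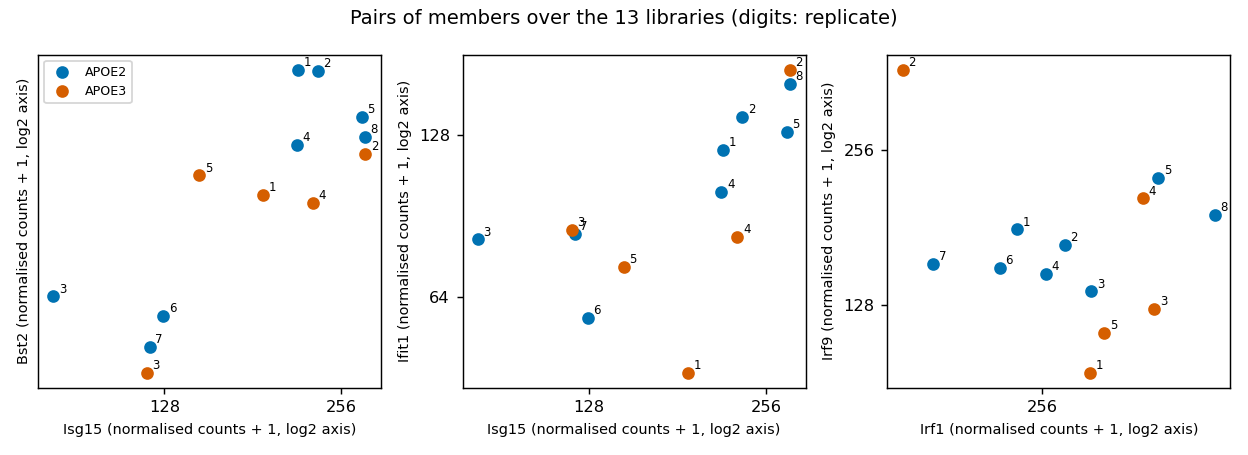
Normalised counts + 1 of 3 pairs of genes on log2 axes, 1 point per library, APOE2 in blue and APOE3 in orange, with the replicate as a digit. Isg15 rises with Bst2 and with Ifit1 across both genotypes (r = 0.83 and 0.66 after each genotype's mean was subtracted). In the panel of Irf1 and Irf9, APOE3 replicate 2 stands alone at 171 and 365 normalised counts.

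Outside the 9, the genes most like their mean were Ift20 (r = 0.89 over 13 libraries), Gm29083 (0.87), Chchd10 (0.86), Hey2 (0.86) and Pop5 (0.84). Of these 5, 0 are on the interferon list. Ift20, a subunit of the transport machinery of cilia, had its lowest value, 1762 normalised counts, in APOE2 replicate 6 and its highest, 2673, in APOE2 replicate 5. Of the 50 genes most like the mean, 4 were on the list of other interferon genes (Parp14, Rtp4, Ifitm3 and Oas1g, named after their values were seen), a list that makes up 0.533% of the other genes tested.

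The remaining genes of the pathway were taken from a list of 96, of which 66 passed the filter of a mean of 10 normalised counts, 17 were below it and 13 were not analysed here. By limma 0 of the 66 had an adjusted p under 0.05 in either direction, against 0.79% of genes tested. At an unadjusted p under 0.05, 3 were higher (Mx1, Ddx58 and Mavs) and 5 lower in APOE2 (Ifngr1, Jak2, Dhx58, Cmpk2 and Ifitm2). That is 8 of 66, against 14.2% of genes tested. Mx1 among them passed the filter only through its APOE2 values. The median log2 difference was 0.091.

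Of the 9 ligands, 1 was found by symbol: interferon gamma itself, Ifng, had 2 reads in 1 APOE2 library and 0 in the other 12. For APOE3 a count of 0 allows up to 3 reads in the 39167778 of the group, an upper limit for counting error only. Of 9 receptor and kinase genes, 9 were tested and 0 passed. Ifngr1, the ligand-binding chain of the interferon gamma receptor, had 87.8, 125 and 151 normalised counts (lowest, median and highest) in APOE2, and 163, 179, 185, 208 and 193 in APOE3 replicates 1 to 5. The groups did not overlap, as in 0.984% of genes tested (0.508% with APOE2 lower). Its log2 difference was -0.66 ± 0.20 (SE), with a 95% interval from -1.08 to -0.24 and a limma adjusted p of 0.134. With DESeq2 the adjusted p was 0.0496, and over the other alternatives it ran up to 0.907. The endothelial, lung epithelium and fibroblast markers were also lower in APOE2, in 10 of 10, 9 of 9 and 6 of 6 tested. With a marker mean as a covariate the log2 difference of Ifngr1 was -0.80 for endothelium, -0.54 for lung epithelium and -0.61 for leukocytes (limma adjusted p = 0.907, 0.799 and 0.473). Jak1, a kinase of both receptor arms, had a log2 difference of 0.23 ± 0.12 (SE; limma adjusted p = 0.369). Jak1 shares exon bases with Raver2 on the opposite strand.

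Of 7 other transcription factor genes, 5 were tested and 0 passed. Of 11 genes that sense nucleic acid, 10 were tested and 0 passed. Dhx58, the RNA helicase LGP2, averaged 11.3 normalised counts in APOE2 (SD 9.17) and 35.5 in APOE3 (SD 18.6), a log2 difference of -1.74 ± 0.69 (SE; limma adjusted p = 0.256). With the leukocyte mean as a covariate it was -0.57, and with the lung epithelium mean it was -0.34 (limma adjusted p = 0.878 and 0.967). It shares exon bases with Dhx58os on the opposite strand. Tmem173, the adaptor STING, had 443 ± 39.0 and 454 ± 77.2 (SD), a log2 difference of -0.022 (limma adjusted p = 0.962).

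Of 37 antiviral effector genes, 30 were tested and 0 passed. Mx1, an antiviral GTPase, had 5.65, 16.35 and 28.4 normalised counts (lowest, median and highest) in APOE2, and 0, 13.6, 0, 0 and 0 in APOE3 replicates 1 to 5. It thus had reads in 8 of 8 APOE2 and in 1 of 5 APOE3 libraries, 126 and 12 reads in all. Its mean over the libraries was 10.1, with 14.75 in APOE2 and 2.71 in APOE3, so it passed the filter of 10 only through APOE2. That selection favours a difference, and the fit is not read as support for one. The fitted log2 difference, 3.02 ± 0.93 (SE; limma adjusted p = 0.132), was 3.77 with a pseudocount of 0.5 and 1.49 with a pseudocount of 5. Ifi27, a mitochondrial interferon-induced protein, had 2203 ± 460.3 and 1993 ± 378 normalised counts (SD), a log2 difference of 0.14 (limma adjusted p = 0.702). Of 18 GTPase and interferon gamma target genes, 7 were tested and 0 passed. Cxcl10, a chemokine that attracts T cells, had a log2 difference of 0.24 ± 0.24 (SE; limma adjusted p = 0.695), and it shares exon bases with Art3 on the opposite strand. Gbp3, a relative of Gbp2, had a log2 difference of 1.26 ± 0.71 (SE; limma adjusted p = 0.428), and without APOE3 replicate 5, where it had 0 reads, the difference was 0.43.

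Of 5 feedback inhibitors, 5 were tested and 0 passed. Socs3, which blocks JAK kinases, averaged 220.3 normalised counts in APOE2 (SD 36.8) and 307 in APOE3 (SD 144), a log2 difference of -0.33 (limma adjusted p = 0.591). Its APOE3 libraries were split, with 356, 458 and 403 in replicates 3, 4 and 5 against 204 and 113 in replicates 1 and 2. Without APOE3 replicate 2 the difference was -0.64, and without APOE3 replicate 4 it was -0.14. Pias1, an inhibitor of the pathway, had 269.8 ± 50.9 and 269.8 ± 123 (SD), a log2 difference of 0.095 (limma adjusted p = 0.892).

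Marker lists of other cell types differed between the groups, as given above, and in bulk RNA fewer cells of a type and less RNA per cell cannot be told apart. The fits with a marker mean as a covariate left the 9 genes uncalled. Over all genes tested these fits called 17 with the leukocyte mean, 0 with the endothelial mean and 0 with the lung epithelium mean. The 0 of 9 therefore says little about these genes. Since the marker lists differed between the groups, covariate and genotype also overlap. With the endothelial mean the log2 differences were 1.281 for Ifit1, 1.18 for Gbp2, 0.70 for Isg15 and 0.49 for Ifit3, with limma adjusted p-values from 0.876 to 0.957. With the leukocyte mean they were 0.59 for Ifit1 and 0.86 for Ifit3 (limma adjusted p = 0.650 and 0.293). With the lung epithelium mean they were -1.77 for Irf7, 0.52 for Ifit1, 0.68 for Ifit3 and 0.29 for Gbp2, with limma adjusted p-values from 0.781 to 0.961.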

How the data were processed

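Gene expression was measured in 13 libraries, 8 from APOE2 and 5 from APOE3 hosts, from a QuantSeq forward library kit, so that reads lie near transcript ends (per the labels' protocols). Per the submitters' processing notes the tools were STAR 2.6.0, featureCounts and DESeq2 1.28.1 and the build was mm10; their settings and the annotation are not given in the sources used here. The authors deposited normalised counts, a signal per gene that, judged from the values, equals reads divided by 1 factor per library. Whole reads were recovered from the step of each column: 100% of nonzero values were whole multiples within 0.001. Reads ranged from 7080308 to 13039989 per library; the labels name no molecular identifiers, so totals give counting error only. Symbols came from GENCODE M21 (GRCm38) for 22649 of 22656 identifiers.

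The 12403 genes whose mean over the libraries was 10 or more were tested on log2(value + 1), a scale that understates changes of low genes, with limma 3.58.1 in R 4.3.3, a variance trend, two-sided, Benjamini-Hochberg adjustment over the genes tested and a threshold of 0.05. The fit was tested on simulated data. Alternatives were pseudocounts, filters, scalings, marker covariates, each library left out, a block for replicate numbers, limma robust or with no trend, and on the recovered reads DESeq2 1.42.0 and the quasi-likelihood test of edgeR 4.0.16. Correlations used 100000 permutations within genotypes. Beyond the 9 genes, those named were Apoe and, of each pathway group, the tested gene with the highest mean, the one with the smallest p and any past the threshold; others named are in counts of 5 or fewer, or given for a shared sequence. A gene that this rule names is not reported here. The genes and lists were chosen with earlier results of these data known. P-values measure the spread between these libraries, which may be technical.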

Additional observations from a re-analysis of the deposited data

Results flagged for a closer look

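Among 42 screens of the named genes within a genotype, 4 values stood far from their nearest neighbour relative to the group's range, where chance gives about 2.1. Bst2 had 549 normalised counts in APOE3 replicate 3, below the other 4 APOE3 libraries, and without that library its log2 difference was -0.015. Ifi27 had 2641 in APOE3 replicate 2, above the other 4. Mx1 had 13.6 in the same library and 0 in the other 4. With 4 values at 0 any other value is flagged, so the Mx1 screen cannot be set against the 2.1 given for chance. Jak1 had 1823 in APOE2 replicate 2, above the other 7 APOE2 libraries.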

How the results depend on the processing

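Over 29 alternatives, 13 of which left out 1 library each, 0 of the 9 genes were called, and 0 of the other pathway genes apart from 1, Ifngr1 with DESeq2. The number of genes called, 98, moved to 9 without a filter on low values, 311 with DESeq2 and 17 with the leukocyte covariate. It moved to 0 with limma without trend (1599 at an unadjusted p under 0.05), 0 with the endothelium covariate (673) and 0 with the lung epithelium covariate (814). It was 9 without APOE3 replicate 3 and 228 without APOE3 replicate 1, the extremes of leaving out 1 library. With equal library totals 38 were higher and 54 lower in APOE2, against 51 and 47. Same-numbered libraries had correlations from -0.063 to 0.014 after subtraction of group means, and 0 of 5 matched their own number best, so the numbers did not pair them. The replicate number as a block, on replicates 1 to 5, called 49 genes, and the same libraries without it, an alternative chosen after seeing the data, 39. Both fits gave 0.53 for Irf7, 0.045 for Isg15 and 0.011 for Tmem173. Of 598 single values, 38 changed sign. With edgeR and DESeq2, Irf9 was -0.090 and -0.099, and Isg15 0.019 and 0.010. With the leukocyte covariate Isg15 was 0.25, Tmem173 0.051 and Pias1 -0.017. With the endothelium covariate Irf1 was 0.44, Irf7 0.15, Isg15 0.70, Tmem173 0.13 and Socs3 0.50. With the lung epithelium covariate Isg15 was 0.11 and Tmem173 0.091. The cause of these moves was not tested. Leaving out 1 library gave -0.24 to 0.023 for Irf1, -0.12 to 0.37 for Irf9, -0.19 to 0.12 for Isg15, -0.015 to 0.15 for Bst2, -0.24 to 0.011 for Apoe, -0.075 to 0.065 for Tmem173 and -0.055 to 0.28 for Pias1. Some values kept their sign on leaving out 1 library but moved over 1.5 times. Among them, Cxcl10 ran from 0.12 to 0.39 and Ifi27 from 0.063 to 0.24. Such moves of Stat2, Irf7, Ifit1, Ifit3, Gbp2, Gbp3 and Socs3 are given with those genes above. Over the alternatives that kept all or set libraries, Cxcl10 ran from 0.061 to 0.55 and Ifi27 from 0.096 to 0.41. Depth limits Irf7, Mx1 and Dhx58, which have few reads. With a mean of at least 50 Irf7, Mx1, Dhx58 and Gbp3 gave no value, and Mx1 gave none with equal totals or without any 1 of 6 libraries (APOE2 replicates 2, 3, 5, 7 and 8 and APOE3 replicate 2), since it fell below the filter.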

Other observations

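Cxcl11, an interferon gamma-induced chemokine below the filter, had reads in 7 of 8 APOE2 libraries (106 in all, 54 of them in APOE2 replicate 3) and 0 in 5 of 5 APOE3 libraries. A count of 0 allows up to 3 reads in the 39167778 of APOE3, for counting error only. The gene was singled out after its values were seen and was not tested.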
